A study of Mus musculus with 7 samples.

Results

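The TOX family was described in tumour-infiltrating CD8 T cells from its 4 members, Tox, Tox2, Tox3 and Tox4, taken by gene name from the 53656 gene rows of each library. The libraries came from OT1 cells, CD8 T cells with a transgenic receptor for an ovalbumin peptide, sorted as CD8 and CD45.1 positive from B16-OVA-GP61 tumours. This mouse melanoma line carries ovalbumin and the GP61 epitope, the antigens of both kinds of transgenic T cell, in all 7 samples. In 4 libraries no SMARTA cells were present, and in 3 libraries the tumours also held SMARTA cells, which are CD4 T cells whose transgenic receptor recognises GP61. Age and strain of the mice and the day of the sort are not given in the labels. Nor do they say whether each library had its own animal, so each p-value here reflects the spread between libraries, which may be technical.

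TOX proteins are nuclear factors that share an HMG box, a domain that binds and bends DNA. In mouse CD8 T cells TOX is induced through calcineurin and NFAT under lasting antigen stimulation, and it is known for its role in the survival and the chromatin state of exhausted cells. It is also needed in the thymus for CD4 T cells and in the development of innate lymphocytes. TOX2 is known from follicular helper T cells and NK cells, TOX3 from neurons and breast epithelium, and TOX4, which is expressed in most tissues, belongs to the PTW/PP1 phosphatase complex on chromatin.

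Libraries held 38092722 to 49438357 counts, and 1 count was worth 0.0202 to 0.0263 CPM, the counts scaled to a common library size. CD8 T cell markers summed to 8171 to 10149 CPM without and 9027 to 10462 CPM with SMARTA, while Cd4 was at 0.659 to 8.09 CPM (marker values are scaled by library totals, without TMM factors). Replicate 1 with SMARTA stood apart by its erythroid markers, which summed to 4829 CPM against 9.72 to 223 CPM in the others. Replicate 2 without SMARTA stood apart by its melanoma markers, at 69.4 CPM against 6.75 to 17.1 CPM. Results are therefore also given without these 2 libraries.

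Of the 2 family members that passed the filter on low counts, Tox was the 1 called lower. Its counts were 17684, 4604, 9587 and 10142 in replicates 1 to 4 without SMARTA and 1085, 1045 and 967 in replicates 1 to 3 with SMARTA. Scaled by TMM factors, its level was 358, 100.1, 194.7 and 214 CPM without SMARTA. With SMARTA it was 23.0, 25.2 and 28.4 CPM. The groups did not overlap: the lowest library without SMARTA lay 3.52-fold above the highest with SMARTA. Of all 15896 genes tested, 10.5% were lower with no overlap. Tox averaged 217 ± 107 CPM without and 25.5 ± 2.73 CPM with SMARTA (mean ± SD, n = 4 and 3). Its log2 fold change, with minus without SMARTA, was −3.09 ± 0.41 (SE), with a 95% interval from −4.03 to −2.14. This corresponds to an 8.49-fold lower level, with an interval of 4.41-fold to 16.3-fold, and an adjusted p of 0.0161 (edgeR quasi-likelihood test, Benjamini-Hochberg over all genes). Among the 15896 genes tested, 3.15% had an adjusted p under 0.05, and 1.63% were lower. In bulk samples, fewer cells with Tox transcript and less transcript per cell cannot be told apart.

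**Figure D1:**
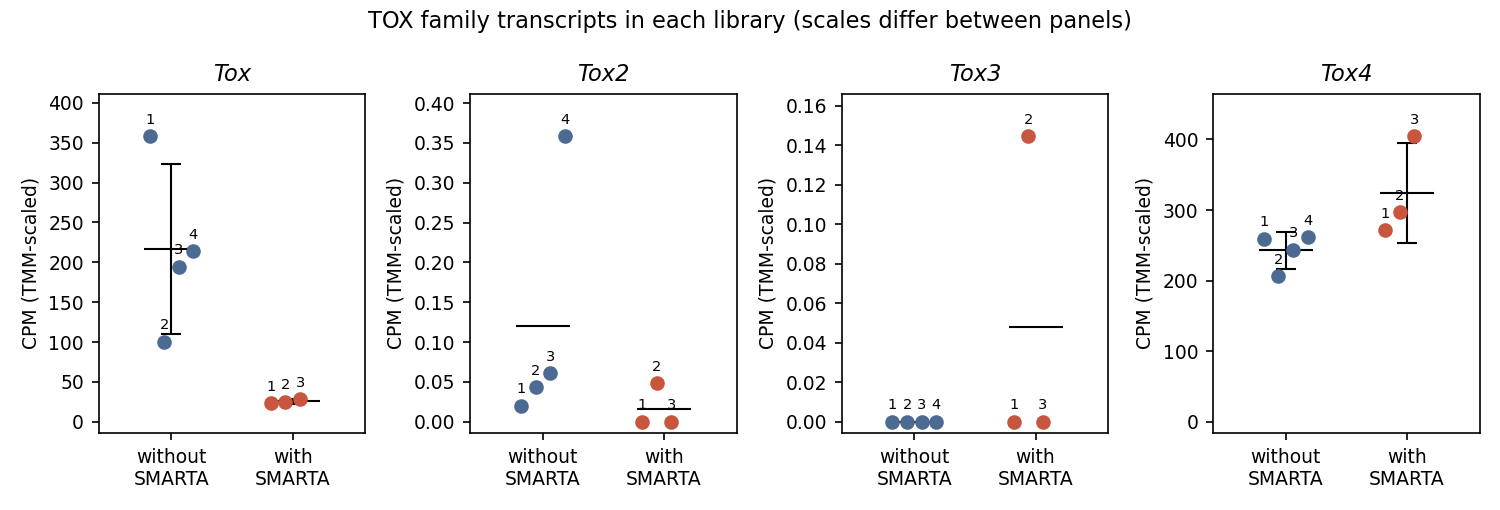
Level of each TOX family member in the 7 libraries, in TMM-scaled CPM, with points numbered by replicate. Horizontal bars are group means (n = 4 and 3) and error bars for Tox and Tox4 are SD; vertical scales differ, so that Tox2 and Tox3 points stand for 0 to 17 counts.

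The size of the Tox decrease varied little between fits, while its call depended on which libraries entered. Without both libraries that stood apart, the log2 fold change of Tox was −3.25 (edgeR adjusted p = 0.00525, with 7.69% of genes called). In the 7 fits that leave out 1 library, it ranged from −3.32 to −2.76, and 4 of the 7 fits called Tox. The call was lost without replicate 4 lacking SMARTA (edgeR adjusted p = 0.0624). It was also lost without replicate 2 or 3 with SMARTA (edgeR adjusted p = 0.0671 and 0.0583). Few genes of any kind were called in those fits: 0.11% without replicate 4 lacking SMARTA, 0.217% and 0.312% without replicates 2 and 3 with SMARTA. In the fits that called Tox, the share was 0.423% without replicate 1 lacking SMARTA, 2.56% without replicate 2 and 0.639% without replicate 3, and 5.41% without replicate 1 with SMARTA.

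**Figure D2:**
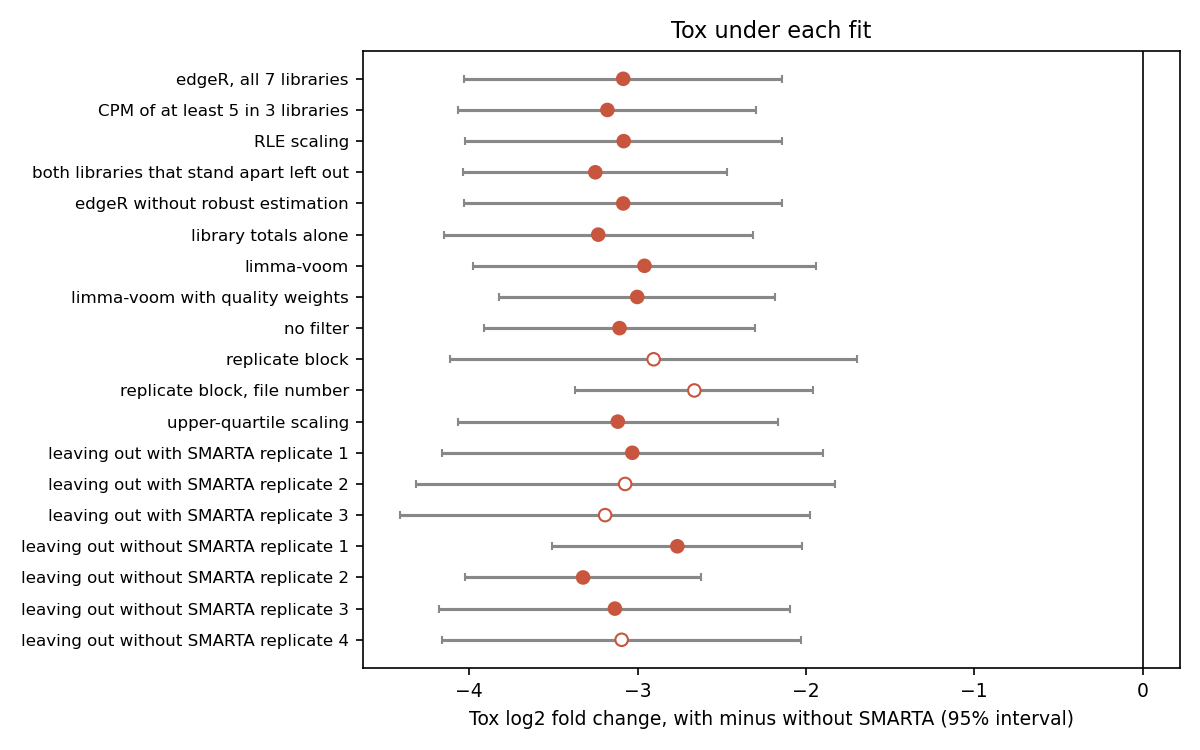
Log2 fold change of Tox, with minus without SMARTA, and its 95% interval in each limma or edgeR fit. Filled points have an adjusted p under 0.05 and open points do not; all values lie between −3.32 and −2.66, and no interval reaches 0.

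Fits of all 7 libraries with other settings called Tox too. The share of genes called was 9.56% by DESeq2, 3.33% by limma-voom, 9.67% by limma-voom with quality weights and 3.21% by edgeR without robust estimation. With edgeR it was 3.34% under RLE or upper-quartile scaling, 3.53% under library totals, 1.9% with no filter and 8.97% with a filter of 5 CPM in 3 libraries. The exceptions, fits with a block, are given under the dependence on processing.

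Tox ranked 245 of the 15896 genes tested by size of decrease. It was also set beside genes of its level without SMARTA, the group where it is high, a choice that favours genes that fell. Of the 838 genes with a mean of at least that of Tox without SMARTA, Tox included, 6 had a log2 fold change as low as that of Tox or lower, Tox among them. Per kilobase of exon, Tox lay above 77.6% to 91.9% of tested genes in the libraries without SMARTA. With SMARTA it lay above 53.5% to 56.5% of them, so its transcript remained at a middle level.

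The spread of Tox also differed in description between the groups. Its coefficient of variation was 49.2% without SMARTA, against a median of 29.3% over the genes tested. With SMARTA it was 10.7%, against a median of 36.8%, and 7.23% of tested genes varied less. The highest library without SMARTA, replicate 1, had 3.58 times the lowest, replicate 2, which is the library with the most melanoma marker transcript. With SMARTA the highest had 1.24 times the lowest. The erythroid-rich library, replicate 1 with SMARTA, was not set apart from its group in Tox.

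Tox4, the phosphatase complex member, did not pass the test. Its level was 259, 206, 244 and 262 CPM in replicates 1 to 4 without SMARTA and 272, 297 and 404 CPM in replicates 1 to 3 with SMARTA. The groups did not overlap on this scale, as for 8.73% of tested genes in the higher direction, but replicate 1 with SMARTA lay just above the highest library without. The means were 243 ± 25.6 CPM and 324 ± 70.6 CPM (SD, n = 4 and 3). The log2 fold change was 0.42 ± 0.19 (SE), with a 95% interval from −0.02 to 0.86 and an edgeR adjusted p of 0.297. That interval covers changes from a 0.984-fold to a 1.81-fold level, so it does not show that Tox4 stayed the same. Scaled by library totals alone, the groups overlapped, and the log2 fold change was 0.26 (edgeR adjusted p = 0.471). Without replicate 3 with SMARTA, the highest library, it was 0.20 (edgeR adjusted p = 0.658).

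Since the gene rows differ in exon length, from 3356 bases for Tox3 and 3401 for Tox2 to 6950 for Tox4 and 7609 for Tox, levels were compared between members per kilobase of exon. Without SMARTA, Tox stood at 28.5 ± 14.0 and Tox4 at 34.9 ± 3.68 CPM per kilobase (SD, n = 4). With SMARTA they stood at 3.35 ± 0.359 and 46.7 ± 10.2 CPM per kilobase (n = 3). The ratio of Tox to Tox4 within a library needs no scaling between libraries. It was 1.26, 0.443, 0.73 and 0.746 in replicates 1 to 4 without SMARTA and 0.0773, 0.0775 and 0.0642 in replicates 1 to 3 with SMARTA. The lowest ratio without SMARTA was 5.72 times the highest with SMARTA. Tox exceeded Tox4 only in replicate 1 without SMARTA. Tox made up 30.7% to 55.8% of the summed family level without SMARTA and 6.03% to 7.18% with SMARTA.

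**Figure D3:**
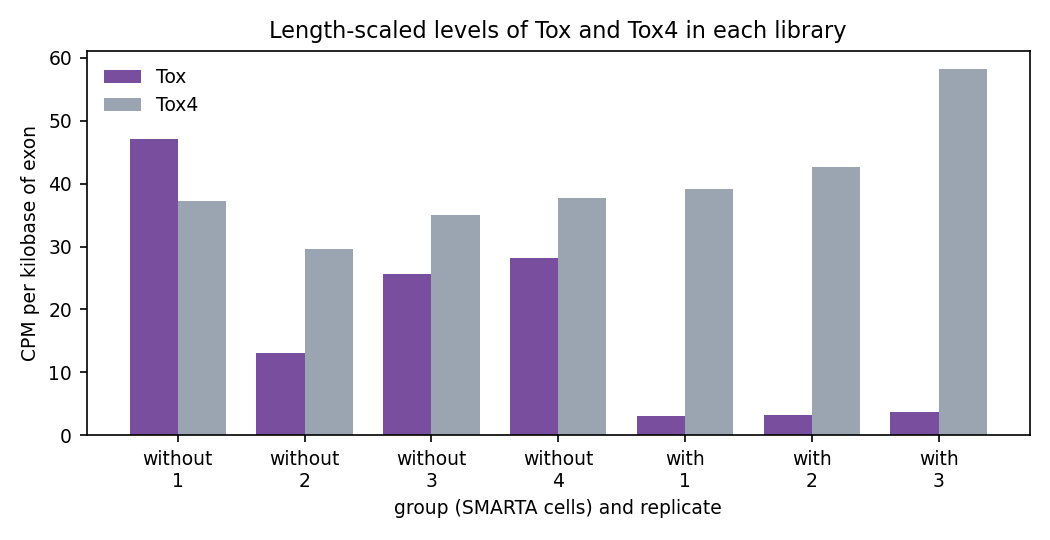
Length-scaled levels of Tox and Tox4 in each library, in TMM-scaled CPM per kilobase of exon; each bar is 1 library. Tox bars lie between 13.2 and 47.1 without SMARTA and between 3.02 and 3.73 with SMARTA, while Tox4 bars lie between 29.7 and 58.2 throughout.

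Tox2 and Tox3 were at the limit of detection and were removed by the filter on low counts, so that 2 of the 4 members were tested in the fit over all genes. Tox2 had 1, 2, 3 and 17 counts in replicates 1 to 4 without SMARTA and 0, 2 and 0 counts in replicates 1 to 3 with SMARTA. Most Tox2 counts therefore came from 1 library, and the groups overlapped. Its summed level was 0.125 CPM without SMARTA (exact Poisson 95% interval 0.0794 to 0.188, counting error only). With SMARTA it was 0.0154 CPM (0.00186 to 0.0555). The difference in mean CPM, with minus without, was −0.105, with p = 0.314 by a two-sided exact permutation test over 35 splits, whose smallest p is 0.0286. Without replicate 4 lacking SMARTA, the difference in Tox2 was −0.0255 CPM.

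Tox3 had no count in 6 of 7 libraries and 6 counts in replicate 2 with SMARTA. Over the 4 libraries without SMARTA, 0 of 183606769 counts give an exact Poisson 95% interval from 0 to 0.0201 CPM (counting error only). The difference in mean CPM was 0.0482 (two-sided exact permutation test, p = 0.429), and it rests on replicate 2 with SMARTA, without which it is 0. Per kilobase of exon, the highest library reached 0.105 CPM for Tox2 and 0.0431 CPM for Tox3, while the lowest had 3.02 CPM for Tox and 29.7 CPM for Tox4. Changes of Tox2 and Tox3 between the groups were thus not detectable at this depth.

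All coordinates are those of GRCm38. Tox spans 305 kb of chromosome 4, from 6686353 to 6991557 on the minus strand, with 11 merged exons. Tox2 lies on chromosome 2 from 163203125 to 163324170, plus strand, Tox3 on chromosome 8 from 90247040 to 90348343, minus strand, and Tox4 on chromosome 14 from 52279146 to 52296401, plus strand. Counting without strand left out read pairs that match exons of 2 genes. In Tox4, 933 bases, or 13.4% of its exon length, are shared with Mettl3, which encodes an RNA methyltransferase on the opposite strand, and 195 bases with Rab2b. Mettl3 had a mean of 54.6 ± 5.89 CPM without SMARTA. Its mean with SMARTA was 55.9 ± 9.47 CPM (0.03 on the log2 scale, edgeR adjusted p = 0.953). In Tox 260 bases are shared with RP23-395P16.2, an opposite-strand row with at most 13 counts in a library. Levels per kilobase used full exon lengths, with shared bases included. Those of Tox4 may thus be too low, and the ratios of Tox to Tox4 too high, in both groups.

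The promoters of the members at the limit of detection and of the well expressed Tox4 can be set side by side, and RefSeq's table for GRCm38.p6 held a start for 3 of the 4 members, Tox2, Tox3 and Tox4. For each the 250 bases before the start nearest to the gene row's 5′ end are shown, 5′ to 3′ on the gene's strand. Capitals mark the GC box, GGGCGG on either strand, a motif bound by Sp1-type factors. The stretches are chr2:163202877-163203126 (plus strand), chr8:90348253-90348502 (minus strand) and chr14:52278896-52279145 (plus strand), the last inside the span of Rab2b.
Tox2: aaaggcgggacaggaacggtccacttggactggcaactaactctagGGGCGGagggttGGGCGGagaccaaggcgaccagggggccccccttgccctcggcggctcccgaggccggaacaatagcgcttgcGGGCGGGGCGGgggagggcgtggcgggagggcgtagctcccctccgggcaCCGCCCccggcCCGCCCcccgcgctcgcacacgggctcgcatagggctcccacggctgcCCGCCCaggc
Tox3: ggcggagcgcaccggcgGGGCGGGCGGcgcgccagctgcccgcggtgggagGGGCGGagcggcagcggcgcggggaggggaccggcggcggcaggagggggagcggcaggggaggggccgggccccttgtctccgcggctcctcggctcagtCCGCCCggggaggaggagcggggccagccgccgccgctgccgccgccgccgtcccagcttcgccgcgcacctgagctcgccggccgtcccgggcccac
Tox4: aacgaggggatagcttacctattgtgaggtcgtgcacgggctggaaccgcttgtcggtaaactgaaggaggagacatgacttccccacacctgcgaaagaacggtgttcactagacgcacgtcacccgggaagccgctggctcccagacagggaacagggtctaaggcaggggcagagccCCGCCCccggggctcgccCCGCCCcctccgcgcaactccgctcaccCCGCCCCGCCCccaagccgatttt
All 3 stretches were rich in G and C, with 75.2% in Tox2, 84.4% in Tox3 and 64.8% in Tox4, against a median of 52.4% over 32851 promoters. They held 27, 40 and 21 CG dinucleotides, against a median of 6. The GC box matched 7, 4 and 4 times, and 32.7% of all promoters hold at least 1 match. Neither the NFAT core GGAAA, found in 55.6% of promoters, nor the TATA box TATAAA, found in 12.4%, matched in any of the 3 on either strand. Of the 3 motifs searched, the GC box was thus the one found in each stretch, which describes sequence and not binding.

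Genes studied together with TOX were described from 8 lists, beside a median log2 fold change of −0.0034 over all genes tested. Of 19 inhibitory receptors and exhaustion-associated genes, 5 were called lower and none higher, against 1.63% and 1.52% of all genes. The list's median was −1.22, with a log2 fold change below 0 in 15 genes and above 0 in 4. Those 4, named after their values were seen, were Cd101 (0.91), Ctla4 (0.49), Bcl2 (0.26) and Id3 (0.18). Called lower were Rgs16, a regulator of G protein signalling (log2 fold change −3.20, edgeR adjusted p = 0.0291), and the membrane ligand Cd200 (−2.57, edgeR adjusted p = 0.0344). The receptors Lag3 (−2.11), Cd244 (−1.88) and Cd160 (−1.69) were called lower too. None of the 5 passed once replicate 1 or 4 lacking SMARTA was left out, or replicate 2 having SMARTA. Without both libraries that stood apart 8 members passed, in a fit that called 7.69% of all genes where the fit of 7 libraries called 3.15%. The cell cycle markers moved with these groups too, as given below for the genes most like Tox, and their part was not tested.

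Some receptor genes of this list varied far more than Tox within the group with SMARTA. They were singled out after their values were seen. Pdcd1, which encodes PD-1, was at 322 and 356 CPM in replicates 1 and 2 and at 1646 CPM in replicate 3 with SMARTA, within the range of 1257 to 2545 CPM without SMARTA. Havcr2, which encodes TIM-3, was at 26.02, 166 and 375 CPM in the same libraries, and Tnfrsf9, the costimulatory receptor 4-1BB, at 79.9, 371 and 906 CPM. Replicate 3, where these 3 genes were highest of the group, also had the group's highest Tox, at 28.4 CPM, but Tox was spread over 1.24-fold and Pdcd1 over 5.11-fold. All 19 members had a larger coefficient of variation than Tox among the libraries with SMARTA, including Il10, which was at most 0.217 CPM there. Over all tested genes only 7.23% varied less than Tox in this group, so a larger value was usual for any gene. Without SMARTA most members had a smaller value than Tox, as did 74.2% of all tested genes. Both counts thus describe Tox and are no result about this list. The coefficient without SMARTA was 49.2% for Tox, 29.8% for Pdcd1, 29.5% for Havcr2 and 6.71% for Tnfrsf9. It was larger than in Tox for Lag3, Ikzf2, Eomes and Il10. Pdcd1 (log2 fold change −1.22) had an edgeR adjusted p of 0.302 and Havcr2 (−1.18) of 0.427.

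Effector and cytolytic genes moved both ways. Of 19 tested, Cx3cr1, a chemokine receptor of effector cells, fell from 138 ± 24.8 to 24.4 ± 9.23 CPM (log2 fold change −2.49, edgeR adjusted p = 0.0141). The transcriptional regulator Id2 rose by 1.10 and the egress receptor S1pr1 by 2.49 on the log2 scale (edgeR adjusted p = 0.0236 and 0.0119). The list's median was −0.06, and of all genes 1.63% were called lower and 1.52% higher. The log2 fold change was below 0 in 11 of the 19 and above 0 in 8. With no overlap between the groups, 5 were lower and 2 higher, against 10.5% and 8.73% of all genes. DESeq2 called 5 lower and 2 higher, in a fit that called 9.56% of all genes. The cytokine genes Il2 (−3.43, edgeR adjusted p = 0.0502) and Ifng (−2.95, edgeR adjusted p = 0.0587), named after their values were seen, were not called. Without both libraries that stood apart 4 fell and 2 rose, in a fit that called 7.69% of all genes. No member passed without replicate 4 lacking SMARTA.

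A list of 17 genes upstream of TOX, namely calcineurin, NFAT, NR4A and EGR genes with the factors Irf4 and Batf, had a median of −0.24. Of these, 2 were called lower and none higher, against 1.63% and 1.52% of all genes. They were the nuclear receptor Nr4a2, from 71.8 ± 46.1 to 10.6 ± 3.78 CPM (log2 fold change −2.76, edgeR adjusted p = 0.0339), and the factor Irf4 (−2.21, edgeR adjusted p = 0.0424). The other 15 did not pass. Among them were the NFAT genes Nfatc1 (0.45), Nfatc2 (0.66), Nfatc3 (0.15) and Nfat5 (−0.58), and the NR4A and EGR genes Nr4a1 (−1.88), Nr4a3 (−2.05), Egr1 (−0.43), Egr2 (−2.05) and Egr3 (−1.27), all named after their values were seen. Nr4a2 and Irf4 both lost their call without replicate 1 or 4 lacking SMARTA and without replicate 2 or 3 with SMARTA.

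Of 15 tested follicular helper genes, studied with TOX2, Cd200 fell and Lef1, an HMG-box factor of naive and memory cells, rose from 81.3 ± 13.5 to 205 ± 46.7 CPM (log2 fold change 1.34, edgeR adjusted p = 0.0239). Among 21 tested HMG-box genes outside the family, Lef1 and Hbp1, a transcriptional repressor, were called higher and none was called lower. The list moved both ways, with a log2 fold change below 0 in 12 of the 21. With no overlap between the groups, 5 were lower and 4 higher, against 10.5% and 8.73% of all genes. DESeq2 called 2 lower and 3 higher, in a fit that called 9.56% of all genes. Hbp1 went from 75.7 ± 11.3 to 203 ± 53.6 CPM (1.42, edgeR adjusted p = 0.0206). Medians of these lists were 0.16 and −0.02, and of all genes 1.63% were called lower and 1.52% higher. Both Lef1 and Hbp1 lost their call without replicate 1, 3 or 4 lacking SMARTA and without replicate 2 or 3 with SMARTA.

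The partner complexes of TOX and TOX4 held no called gene. Over all genes 3.15% were called, so no call among so few genes is near that share. It does not show that the complexes stayed the same. Of the HBO1 acetyltransferase complex, which TOX is known to bind in mouse CD8 T cells, none of 10 members passed, with Kat7 at a log2 fold change of 0.30 and Jade3 at −0.63 (edgeR adjusted p = 0.626 and 0.515). Of the other 5 genes of the PTW/PP1 complex none passed, with Wdr82 at 0.43 and the phosphatase subunit Ppp1cb at −0.46 (edgeR adjusted p = 0.461 and 0.596). No member of either list had an unadjusted p under 0.05, against 18.6% of all genes tested. DESeq2 called none, in a fit that called 9.56% of all genes.

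**Figure D4:**
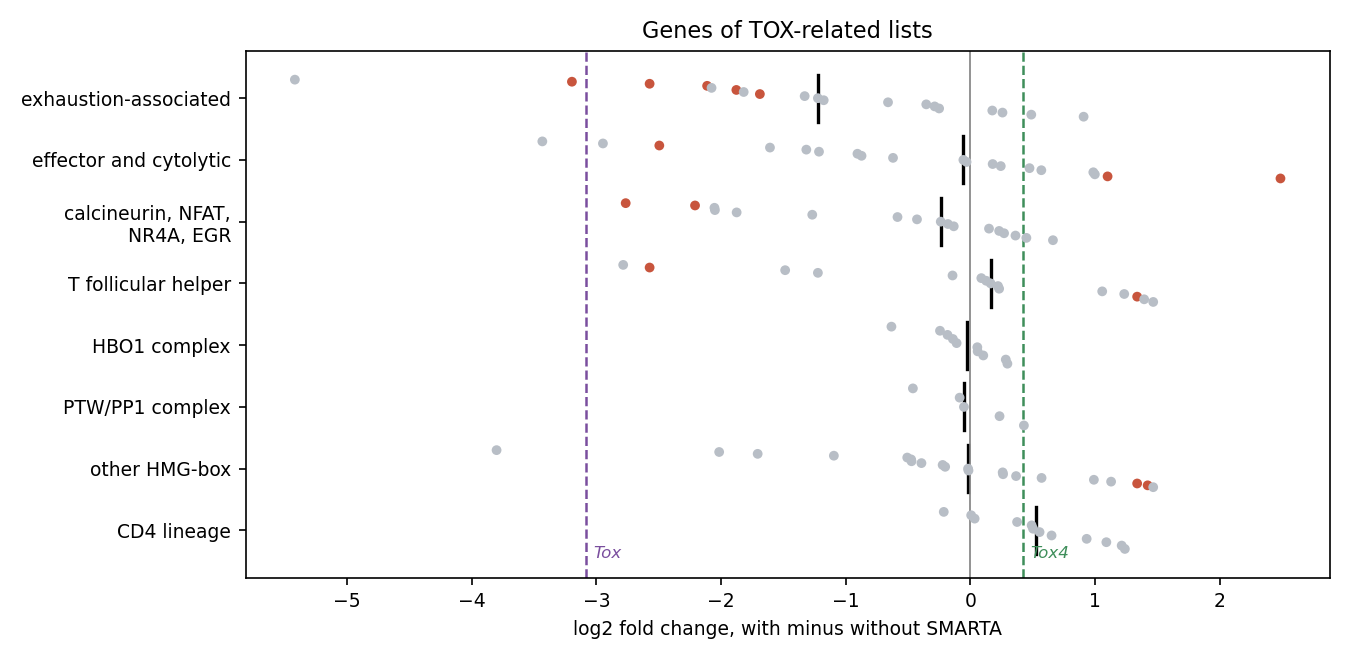
Log2 fold change, with minus without SMARTA, of each tested gene in 8 lists related to TOX; red points have an edgeR adjusted p under 0.05, and black bars are list medians. Dashed lines mark Tox (−3.09) and Tox4 (0.42), and the grey line the median of all genes.

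The genes with profiles most like that of Tox are named with their distance from it. Likeness was measured as the root mean square difference in log2 CPM over the 7 libraries, after each gene was centred on its own mean, among 12205 named genes, whose median difference from Tox was 1.64. The nearest was Cenph, a kinetochore protein, at 0.263. It was followed by the replication factor Gins1 (0.313), the mitotic kinase Plk1 (0.334), the kinase subunit Cks1b (0.364) and the ubiquitin-conjugating enzyme Ube2c (0.376). The next were Olfr543 (0.392), the kinetochore protein Nsl1 (0.399), the enolase Eno3 (0.41), the folate enzyme Shmt1 (0.418) and Klra2 (0.42). Cenph was at 45.13, 13.1, 20.0 and 24.5 CPM in replicates 1 to 4 without SMARTA and 2.52, 4.43 and 4.495 CPM in replicates 1 to 3 with SMARTA. As with Tox, replicate 1 was highest and replicate 2 lowest without SMARTA. Olfr543 and Klra2 were under 1 CPM in every library. Since all these genes share the libraries, and the difference between the groups makes up most of each profile, likeness here is no sign of shared control.

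Cell cycle genes moved with Tox. All 14 cell cycle markers were lower with no overlap between the groups, and 11 of them were called, against 10.5% and 1.63% of all genes tested. Their summed level was 3995, 2052, 3424 and 3058 CPM in replicates 1 to 4 without SMARTA and 392, 725 and 881 CPM in replicates 1 to 3 with SMARTA. Their part in the difference in Tox was not tested. The summed markers of each other cell type overlapped between the groups, apart from the endothelial ones. That sum, 85.6 to 117 CPM without and 137 to 187 CPM with SMARTA, was almost all Pecam1, an adhesion molecule that T cells also express. Pecam1 was at 82.5 to 116 CPM without and 137 to 186 CPM with SMARTA, while Cdh5, Kdr, Tek, Emcn and Vwf were at most at 3.14 CPM in any library. Melanoma markers summed to 6.996 to 69.4 CPM without and 6.75 to 9.51 CPM with SMARTA. Summed CD4 T cell and Treg markers were at 154 to 241 CPM without and 138 to 176 CPM with SMARTA, of which Foxp3 was at most 12.0 CPM. In this sum Ccr8, a chemokine receptor, was called lower, at 84.2 to 133 CPM without and 7.66 to 25.02 CPM with SMARTA. Cd40lg, at 26.2 to 68.1 and 88.1 to 101.02 CPM, and Zbtb7b, at 7.96 to 22.7 and 23.1 to 43.3 CPM, were higher with no overlap and were not called. Neutrophil markers summed to 55.2 and 30.0 CPM in replicates 1 and 2 without SMARTA, the libraries with the highest and the lowest Tox of that group, and to 0.70 to 2.91 CPM in the other 5 libraries, with Elane at 0 in all. Without replicate 1 lacking SMARTA the log2 fold change of Tox was −2.76 (edgeR adjusted p = 0.0349), and without replicate 2 it was −3.32 (edgeR adjusted p = 0.0157). No marker of the neutrophil or macrophage lists was called. All 11 macrophage markers were tested but only 3 of the 9 neutrophil markers, and those removed by the filter could not be called.

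**Figure D5:**
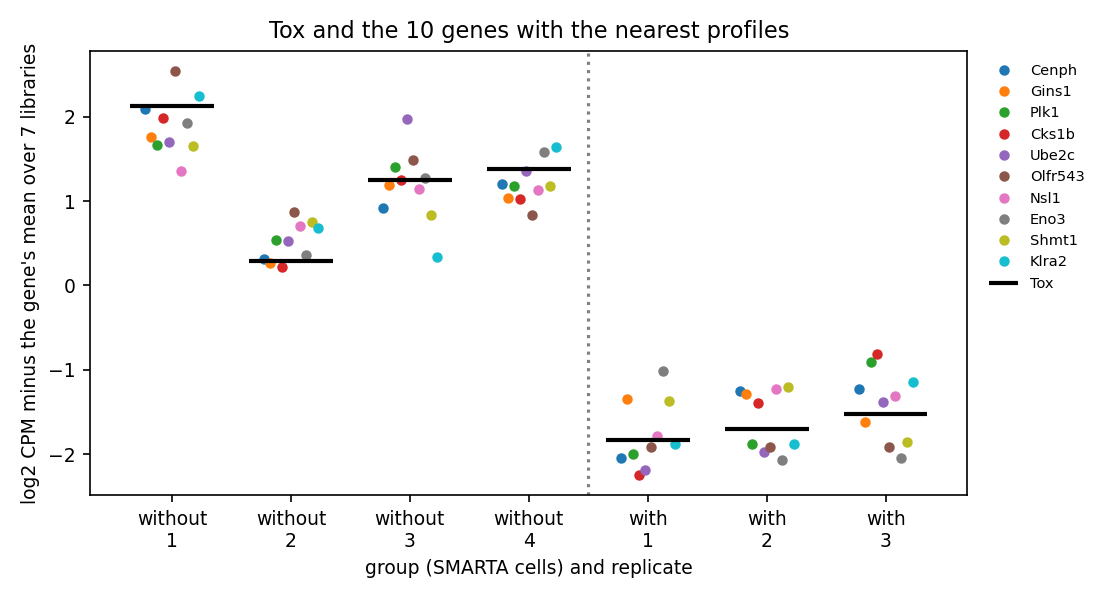
Log2 CPM of Tox (black bars) and of the 10 genes with the nearest profiles (coloured points), each minus the gene's own mean over the 7 libraries. Tox stands at 100.1 to 358 CPM without and at 23.0 to 28.4 CPM with SMARTA, and in both groups the points lie around its bars.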

How the data were processed

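Messenger RNA was measured in 7 libraries, grouped by their titles. Per the labels' protocols, RNA of sorted cells was amplified with SMART-seq V4, which does not mark strand. The tools STAR 2.6.0c and featureCounts 1.6.2, with build GRCm38.p6, are named per the submitters' processing notes. The deposited values are raw counts of read pairs per gene name over GENCODE exons, unstranded, per the file headers. Genes were kept by filterByExpr (minimum count 10, minimum total 15), scaled by TMM and tested with robust quasi-likelihood fits in edgeR 4.0.16 (R 4.3.3), with no covariate. Alternatives used limma 3.58.1 and DESeq2 1.42.0. Fits were tested on simulated data. Members removed by the filter got exact permutation tests. Log2 CPM used a prior count of 2.

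Members and lists were chosen with earlier results of these data known. The text names the 4 members, up to 4 called genes per list or the 2 with the smallest p, the 10 genes nearest to Tox (rows named by model number left out and, in addition to the rule, rows named by clone), and called or nearest genes within 500 kb of a member. Lag3 completes a count. Genes nearest to Tox2 were not sought, since Tox2 was not tested. List counts and medians carry no test of their own.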

Additional observations from a re-analysis of the deposited data

Results flagged for a closer look

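Tox2 in replicate 4 without SMARTA lay far from the other 3 libraries of its group. It had 0.358 CPM, from 17 counts, against 0.0202 to 0.0609 CPM, from 1 to 3 counts. Its gap to the next library made up 0.88 of the group's range, above the 95% limit of Dixon's test for 4 samples, a limit that chance passes in about 5% of groups. Tox in the same library was at 214 CPM, between the other libraries without SMARTA.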

How the results depend on the processing

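Tox kept its direction in every fit run. It was no longer called at an adjusted p under 0.01 (log2 fold change −3.09) or with the replicate number as a block (−2.90, edgeR adjusted p = 0.326). The same held with a replicate block by the file's own number (−2.66, edgeR adjusted p = 0.0949). Deviations of same-numbered libraries from their group means had correlations of −0.139, 0.0263 and −0.274 by replicate number, and −0.0862 to −0.044 by file number. With so few pairs, and no comparison with differently numbered libraries, these values do not settle whether the numbers pair the samples. No gene was called by edgeR with either block (0 and 0), while 1631 and 1868 had an unadjusted p under 0.05; no other tool was run with a block. The other fits of Tox, with all 7 libraries or without both that stood apart, gave −3.25 to −2.96. With 1 library left out, Tox ranged from −3.32 to −2.76, Tox4 from 0.20 to 0.51, Tox2 from −0.138 to −0.0255 CPM and Tox3 from 0 to 0.0722 CPM. Tox4 passed in no alternative run. Neither did Tox2 and Tox3, but with libraries left out their permutation tests have too few splits to pass, so those fits say nothing of stability. The 500 calls over all genes became 842 with a filter of 5 CPM in 3 libraries, 1744 by DESeq2, 1537 by limma-voom with quality weights, 7 at an adjusted p under 0.01, and 1257 without both libraries that stood apart, a choice made after seeing the data. They ranged from 17 to 907 with 1 library left out. The cause of these differences was not tested. In Tox2 and Tox3 depth limits what can be seen.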

Other observations

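Near the members' loci, 3 tested genes lay within 500 kb of Tox, and none was called. The nearest was Nsmaf, an adaptor of sphingomyelinase signalling, 232 kb away (log2 fold change −0.44, edgeR adjusted p = 0.229), and the others were Sdcbp (0.11) and Ubxn2b (0.27). Of 12 tested genes within 500 kb of Tox2, 1 was called, Mybl2, a transcription factor of the cell cycle, 118 kb away, which fell from 16.1 ± 5.78 to 3.08 ± 0.824 CPM (log2 fold change −2.39, edgeR adjusted p = 0.0239). On the other side of Tox2, Oser1 differed by 0.40 (edgeR adjusted p = 0.375). None of the 14 tested near Tox4 passed, nor did Chd9 near Tox3. Over all genes 3.15% were called, so these counts among few neighbours are no result about the loci.

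TOX is known from the thymus for the CD4 lineage. Of 12 genes of CD4 lineage choice and thymic selection none passed in the edgeR fit of all 7 libraries, where 3.15% of all genes did. The log2 fold change was above 0 in 11 of them, and the list's median was 0.53. At an unadjusted p under 0.05 there were 6, against 18.6% of all genes tested. DESeq2 called 1 higher, in a fit that called 9.56% of all genes. Members called higher numbered 3 without both libraries that stood apart, 3 by limma-voom with quality weights, 2 without replicate 1 with SMARTA and 1 without replicate 2 lacking SMARTA, where 7.69%, 9.67%, 5.41% and 2.56% of all genes were called. Cd8b1, a chain of the CD8 coreceptor, averaged 1504 ± 288 CPM in the 4 libraries without SMARTA and 2362 ± 326 CPM in the 3 others (log2 fold change 0.65, edgeR adjusted p = 0.111). The chromatin organizer Satb1 averaged 122 ± 57.9 and 259 ± 65.8 CPM (1.09, edgeR adjusted p = 0.134).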
